A study of Mus musculus with 8 samples.

Results

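The effect of shikonin on the RNA of mouse skin was compared between 2 times, as the difference between shikonin and acetone at 24 h minus the same difference at 4 h on log2 intensities. All 8 arrays of the series enter this comparison (8 of 8), and none was left out. Female C57BL/6JNarl mice of 6 to 8 weeks received 100 μL acetone, the solvent, or 100 μL acetone holding shikonin at 10 μg/μL on the abdominal skin, and skin was taken 4 h or 24 h later. Shikonin is a naphthoquinone pigment of Lithospermum roots. Each of the 4 combinations of treatment and time had 2 one-colour arrays, and every group, controls included, was exposed to acetone. Skin without acetone was not analysed here. The study describes duplicates on separate chips and independent experiments, but neither it nor the labels state whether the arrays of a group came from different mice. The p-values below therefore measure only the spread between arrays, which may be technical. Of 29922 probes on the array, 13853 had an intensity on all 8 arrays, naming 9987 genes, and the brightest probe stood for a gene. Median intensities were between 1129 and 1130 on every array, and intensities below 203.4 (7.67 on the log2 scale), the 5th percentile of all values, were raised to that floor. Intensities of at least 65000 were taken as saturated, and an effect with a whole group at the floor or a saturated array is given as a bound or not at all. The basal epidermis markers, of which 20 were measured, had a summed intensity of 223435 to 316535 over the 8 arrays, and none of them was at the floor on all 8.

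Skin answers a chemical irritant in stages. Keratinocytes and resident leukocytes first release cytokines and transcribe immediate early genes, neutrophils and then monocytes enter, and interferon-stimulated genes can follow, driven by STAT and IRF factors that bind the interferon-stimulated response element. Skin also holds hair follicles, which pass through growth, regression and rest and express their own keratins, together with melanocytes, sebaceous glands, dermal fat, vessels and Langerhans cells, the dendritic cells of the epidermis. In bulk RNA of a tissue, as here, fewer cells of a type and less RNA per cell cannot be told apart.

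Promoter sequences are shown for 5 genes whose shikonin effect rose between the times, because each holds a match to the interferon-stimulated response element. The letters searched were GAAA, any 2 bases and GAAA (or its reverse complement), on both strands, where overlapping matches count, in 250 bases before to 50 after the transcript start, from RefSeq on GRCm38.p6, printed 5′ to 3′ along the gene with the match in capitals. The windows are Aif1, chr17:35176003-35176302, minus strand; Gbp2, chr3:142620413-142620712, plus strand; Cxcl10, chr5:92348840-92349139, minus strand; Gbp5, chr3:142496684-142496983, plus strand; and Rsad2, chr12:26456403-26456702, minus strand. The effect of shikonin turned from negative to positive for Aif1, Gbp2 and Cxcl10, was called at 24 h only for Gbp5 and grew at 24 h for Rsad2.
Aif1: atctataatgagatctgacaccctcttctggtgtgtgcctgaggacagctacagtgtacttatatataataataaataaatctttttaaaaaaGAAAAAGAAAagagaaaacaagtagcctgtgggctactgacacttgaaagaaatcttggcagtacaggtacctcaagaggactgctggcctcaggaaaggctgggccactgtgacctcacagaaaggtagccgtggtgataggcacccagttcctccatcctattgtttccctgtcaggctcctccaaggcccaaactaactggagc
Gbp2: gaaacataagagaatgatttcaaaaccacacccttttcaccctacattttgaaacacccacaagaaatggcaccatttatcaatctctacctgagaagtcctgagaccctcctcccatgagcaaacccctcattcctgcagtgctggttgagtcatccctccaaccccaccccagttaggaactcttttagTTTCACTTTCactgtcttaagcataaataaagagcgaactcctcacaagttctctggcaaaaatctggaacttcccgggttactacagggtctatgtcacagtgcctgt
Cxcl10: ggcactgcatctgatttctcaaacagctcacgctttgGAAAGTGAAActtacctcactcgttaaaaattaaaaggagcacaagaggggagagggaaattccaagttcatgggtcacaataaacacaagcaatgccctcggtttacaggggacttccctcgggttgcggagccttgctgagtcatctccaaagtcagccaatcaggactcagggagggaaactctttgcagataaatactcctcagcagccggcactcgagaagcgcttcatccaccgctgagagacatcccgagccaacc
Gbp5: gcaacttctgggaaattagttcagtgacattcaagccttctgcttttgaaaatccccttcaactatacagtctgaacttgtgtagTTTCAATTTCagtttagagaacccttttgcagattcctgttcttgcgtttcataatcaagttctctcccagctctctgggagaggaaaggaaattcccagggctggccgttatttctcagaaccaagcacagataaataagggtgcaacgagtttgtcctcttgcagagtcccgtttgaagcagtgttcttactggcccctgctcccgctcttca
Rsad2: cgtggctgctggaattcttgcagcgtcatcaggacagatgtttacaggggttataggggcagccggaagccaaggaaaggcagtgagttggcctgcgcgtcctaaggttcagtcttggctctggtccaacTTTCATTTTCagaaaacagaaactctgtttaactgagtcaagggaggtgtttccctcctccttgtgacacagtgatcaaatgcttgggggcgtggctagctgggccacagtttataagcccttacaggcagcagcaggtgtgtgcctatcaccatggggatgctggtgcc

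Of the type I interferon-induced genes that were measured and had a promoter in the table, 13 of 28 (46.4%) held the match, against 3.58% of 8050 measured genes and 3.99% of all 27025 genes with a promoter. Among genes with an effect that turned from negative to positive it was in 8.25% (24 of 291), among those with a rise at 24 h only in 8.46% (27 of 319), among those with a fall at 4 h only in 8.22% (6 of 73), and among those that turned from positive to negative in 1.85% (4 of 216). The kappa B letters GGGA and TTCC with any 2 bases between them were in 4 of 20 chemokine promoters (20.0%), against 1.7% of measured genes. The antioxidant response element, TGAC and GCA around any 3 bases, was in 3 of 20 promoters of the NRF2 list, against 3.14% of measured genes, and the heat shock element, searched as GAA, TTC and GAA with any 2 bases after each of the first 2, was in 1 of 15 chaperone promoters, against 0.559%. Of 12 clock gene promoters, 2 held the E-box CACGTG (11.8% of measured genes) and 1 the D-box TTANGTAA (1.9%). A match of letters is a description of the window and does not show a bound factor.

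The effect of shikonin differed between the times in 5999 of 13853 probes, 43.3% of those tested (limma, difference of effects, adjusted p below 0.05). It was higher at 24 h in 2928 probes (21.1%) and lower in 3071 (22.2%). The effect at a single time passed in 46.6% of probes at 4 h (21.2% higher, 25.4% lower) and in 61.4% at 24 h (29% higher, 32.3% lower). Probes were sorted into classes by the same fit. An effect was called reversed where it passed at both times with opposite signs and the difference passed too, which held for 828 probes (5.98%), 368 up at 4 h and down at 24 h (2.66%) and 460 down and then up (3.32%). An effect at 1 time only required at least 2-fold and a pass at that time, a pass of the difference, and at the other time no pass and a 95% interval within 2-fold. There were 1161 such probes for 24 h (8.38%), 536 up (3.87%) and 625 down (4.51%), and 318 for 4 h (2.3%), 162 up (1.17%) and 156 down (1.13%). Equal effects, at least 2-fold in the same direction at both times with a 95% interval of their difference within 2-fold, were found in 496 probes (3.58%), 304 up (2.19%) and 192 down (1.39%). In 125 of them a group was at the floor or saturated, so that equality is not measured there. The same direction with a larger size at 24 h was found in 1335 probes (9.64%), 593 up (4.28%) and 742 down (5.36%), and with a smaller size in 286 (2.06%), 189 up (1.36%) and 97 down (0.7%). A further 2071 (14.9%) differed without meeting these limits, and 7358 (53.1%) were in no class. The reversed count fell to 485 and 493 without acetone 4 h replicate 1 or 2 and to 549 without shikonin 24 h replicate 2. Since these classes are cut from the tested effects themselves, their values below are a description. Closest to the limits of the reversed class, Ddx39a and Utp25 were inside (largest of the 3 adjusted p-values 0.050 for each) and H2-M3 and P2ry14 outside (0.0502 and 0.0506).

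**Figure D1:**
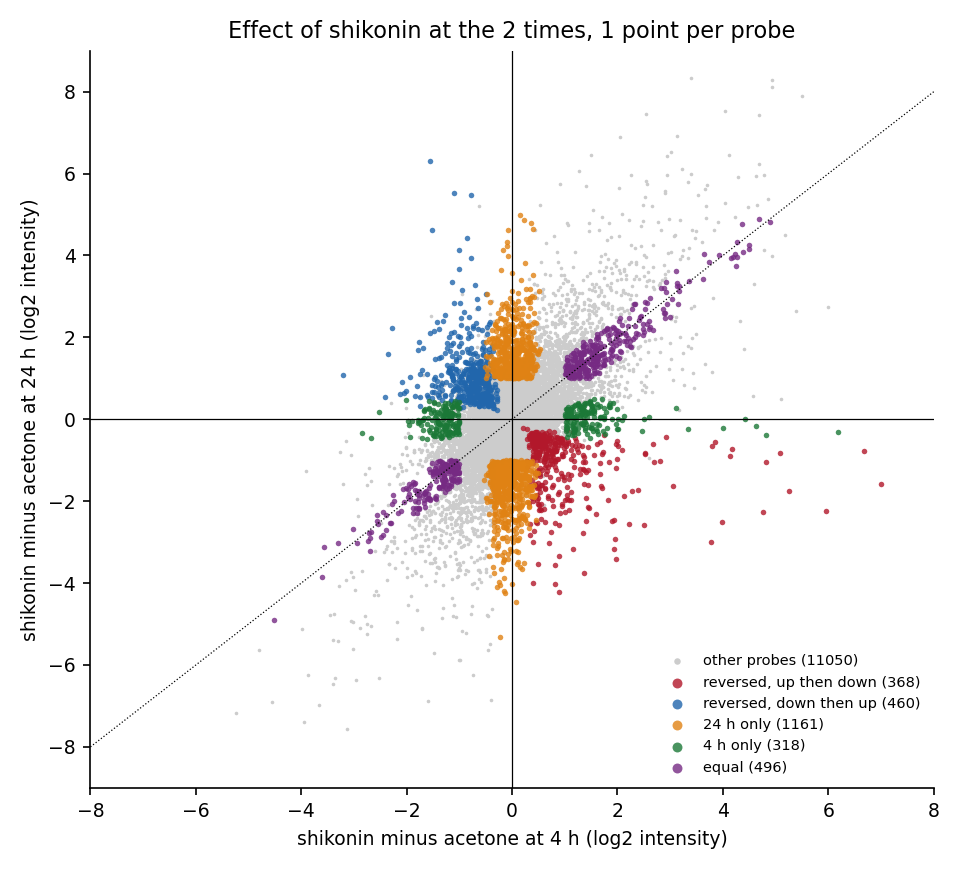
Effect of shikonin at 24 h (vertical axis) against 4 h (horizontal axis) as differences of mean log2 intensity from acetone, 1 point per probe, coloured by class. The 828 reversed probes lie where the 2 effects have opposite signs, the 1161 probes called at 24 h only along the vertical axis, the 318 called at 4 h only along the horizontal axis, and the 496 equal probes on the dotted line of equal effect.

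The difference of effects is also the change between the times in shikonin skin minus that in acetone skin, so each call can be read from either side. Acetone skin was not constant, since 4105 probes (29.6%, 15.5% higher and 14.2% lower) differed between acetone 24 h and acetone 4 h, against 6595 (47.6%, 24.2% higher and 23.4% lower) between the shikonin groups. Of the 5999 calls, 3022 had a change that passed in the shikonin arrays alone, 1148 in the acetone arrays alone, 1479 in both, of which 1231 went in opposite directions, and 350 in neither. Of the 828 reversed probes, 385 changed in the shikonin arrays alone, 70 in the acetone arrays alone and 372 in both. The shikonin change was the larger of the 2 in 86.7% of probes that went up and then down, in 72% of those that went down and then up, and in 59.9% of all probes. When the mean of all 4 acetone arrays served as control at both times, 671 probes were reversed, of which 442 belonged to the 828 (53.4% of those 828, 65.9% of those 671). With this shared control the difference of effects is the change in shikonin skin alone. What the acetone change reflects was not tested.

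**Figure D2:**
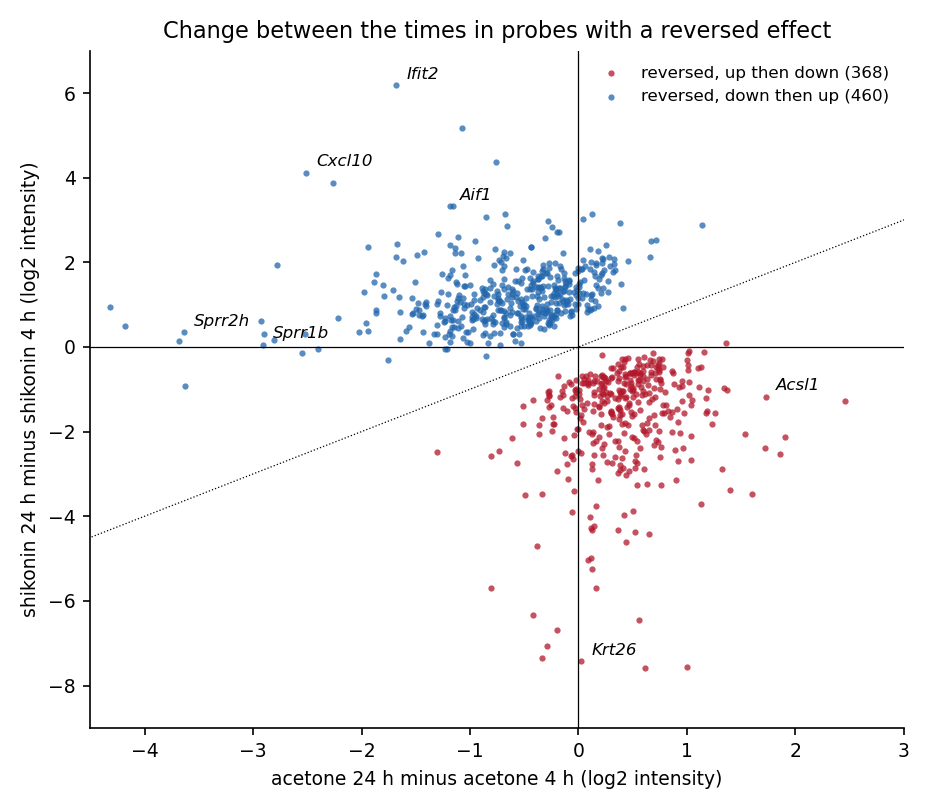
Change from 4 h to 24 h in shikonin skin (vertical axis) against acetone skin (horizontal axis), in log2 intensity, for the 828 probes with a reversed effect, coloured by direction, with equal change on the dotted line. Krt26 lies far below 0 in shikonin skin with almost no change in acetone skin, while Sprr1b and Sprr2h lie near 0 in shikonin skin and far to the left in acetone skin.

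Most hair follicle keratins rose at 4 h and were at or below the acetone level at 24 h. Of 12 measured hair shaft and root sheath keratins, 10 had a lower effect at 24 h and 0 a higher one, with a median difference of -5.69 on the log2 scale against -0.02 over all probes. Of these, 6 were reversed, Krt25, Krt26, Krt27, Krt28, Krt71 and Krt73, all keratins of the inner root sheath, and Krt33a and Krt36 of the hair shaft rose at 4 h only. Krt26 had log2 intensities of 8.58 and 8.48 on the acetone 4 h arrays, 15.19 and 15.21 on shikonin 4 h, 8.65 and 8.46 on acetone 24 h and 7.88 and 7.67 on shikonin 24 h. Its shikonin arrays were far above every other array at 4 h and just below the acetone arrays at 24 h, with no overlap at either time. The effect was 102-fold up at 4 h and 1.72-fold down at 24 h, and the difference was -7.45 (standard error 0.21, limma, adjusted p = 7.78e-08). For Krt71 both shikonin 24 h arrays were at the floor, so its difference of -8.20 is a bound, a fold of at least 294, and the same holds for Krt25, Krt27, Krt28 and Krt73. Krt25, Krt26, Krt27 and Krt28 lie next to each other among the measured genes of chromosome 11, and near-identical keratins may share probe signal.

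Products and regulators of the follicle showed the same order. S100a3, which binds calcium in cuticle cells of the hair shaft, read 9.54 and 9.53 (acetone) and 14.88 and 14.70 (shikonin) at 4 h, and 10.34 and 9.85 (acetone) and 8.36 and 8.32 (shikonin) at 24 h. All 4 groups were separate, with shikonin highest at 4 h and lowest at 24 h. The difference of its effects was -7.01 (standard error 0.24, adjusted p = 2.28e-07 by limma). Crym, a thyroid hormone-binding protein, went from an effect of 5.08 to -0.83, and Dlx3, a homeobox factor of hair and epidermis, from 1.93 to -3.16. Of 16 measured follicle regulators and products, 13 had a lower effect at 24 h and 0 a higher one (median -2.46), against 22.2% and 21.1% of all probes. Of the 13, 7 were reversed and 4 called at 4 h only, the last being Msx2, Padi1, Padi3 and the morphogen Shh. For Padi1 the 24 h arrays of both groups were at the floor, so its 24 h effect is not measured. Summed over the 16 genes, intensity was 91871 to 106712 on the shikonin 4 h arrays, 12448 to 14965 on shikonin 24 h and 23583 to 27821 on the acetone arrays. The share of follicles or of their growth phases in each sample was not tested.

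Melanocyte genes moved in the same order. Of 8 measured, 4 were reversed, all up and then down, and the other 4 did not pass. Dct, dopachrome tautomerase of melanin synthesis, had levels of 10.98 and 10.99 in acetone and 12.91 and 13.00 in shikonin at 4 h, then 11.28 and 10.94 in acetone and 7.67 and 7.75 in shikonin at 24 h. The acetone arrays stayed at one level while shikonin was above them first and near the floor later, and no groups overlapped within a time. Its effects were 1.97 at 4 h and -3.40 at 24 h (difference -5.37, limma, adjusted p = 3.97e-07), and a second, dimmer probe differed by -1.48 in the same direction. Tyrp1, a further melanin enzyme, had effects of 1.16 at 4 h and -3.16 at 24 h, and Mlana and Pmel, proteins of the pigment granule, of 2.81 and -1.02 and of 1.99 and -0.53, the last pair limited by the floor. Sox10 and Kit, which melanocytes also express, did not pass for the difference (0.11 and 1.44).

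Dendritic cell genes did not move as one. Cd207, langerin of Langerhans cells, was 13.25 and 13.15 in acetone and 14.16 and 13.88 in shikonin at 4 h, and 13.50 and 13.19 in acetone and 9.83 and 9.73 in shikonin at 24 h. Shikonin was modestly higher at 4 h and lowest of all groups at 24 h, with effects of 0.82 at 4 h and -3.57 at 24 h (limma, adjusted p = 7.05e-07 for the difference). Cd209a, a lectin of dermal dendritic cells, turned the same way (1.06 at 4 h and -1.34 at 24 h), although its acetone arrays rose by 1.04 between the times. Itgax, which encodes the integrin CD11c, turned the other way (-0.78 and 1.24). With all 4 acetone arrays as control its 4 h effect was -0.21 and did not pass, while Cd209a was still reversed (0.54 and -0.82). Of 13 measured genes of this list, 8 had a lower effect at 24 h and 2 a higher one. Of 14 T and natural killer cell genes 4 were higher, 2 lower and 8 did not pass, shares near the 21.1% and 22.2% over all probes. Klrk1, the receptor NKG2D, went from -1.11 to 2.14, with both of its probes called in that direction.

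The remaining genes with the strongest turn from up to down, ranked by the smaller of their 2 effects, included enzymes and signalling proteins. Cpm, carboxypeptidase M, had effects of 1.96 at 4 h and -2.93 at 24 h. Efhd1, a mitochondrial calcium-binding protein, had 1.82 at 4 h and -1.98 at 24 h, and Pawr, a pro-apoptotic protein, 1.70 at 4 h and -1.68 at 24 h. Ptprf, a receptor phosphatase of epithelial junctions, read 10.92 and 10.90 in acetone and 12.20 and 12.50 in shikonin at 4 h, and 12.19 and 12.08 in acetone and 10.68 and 10.38 in shikonin at 24 h. Both groups moved here, acetone up by 1.23 and shikonin down by 1.82, so that they changed order. Slc27a6, a fatty acid transporter, had effects of 1.60 at 4 h and -2.32 at 24 h. Differences in these 5 genes were -4.89, -3.80, -3.38, -3.04 and -3.91, each with a limma adjusted p of 7.13e-06 or less. Among list members, the eosinophil chemokine Ccl11 (1.16 at 4 h and -0.87 at 24 h), the chaperone Hspa2 (2.01 at 4 h and -0.65 at 24 h), P-cadherin (Cdh3, 1.18 at 4 h and -1.01 at 24 h) and the tight junction gene Cldn4 (1.19 at 4 h and -0.45 at 24 h) turned too. Acsl1, which activates fatty acids in fat cells, turned from 1.11 to -1.79 with the larger change in acetone skin (1.73, against -1.17 in shikonin skin), and with all 4 acetone arrays as control its 4 h effect was 0.25 and did not pass.

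Several genes of macrophages and many of antigen presentation fell at 4 h and rose at 24 h. Aif1, the ionized calcium-binding adapter of macrophages, had log2 intensities of 12.41 and 12.34 in acetone against 10.04 and 10.14 in shikonin at 4 h, and of 10.97 and 11.41 against 13.32 and 13.50 at 24 h. Shikonin was the lowest group at 4 h and the highest at 24 h, without overlap. The effect went from 4.87-fold down to 4.67-fold up (difference 4.51, standard error 0.22, limma, adjusted p = 9.67e-07). Trem2, a lipid receptor of macrophages, had effects of -1.79 at 4 h and 1.68 at 24 h. The lysosomal protease cathepsin S (Ctss) had -1.48 at 4 h and 2.17 at 24 h, and the lectin Clec4a3 of myeloid cells -1.39 at 4 h and 1.5 at 24 h, the last with almost no acetone change (-0.18). The 23 measured monocyte and macrophage genes had a median difference of 1.40. A higher effect at 24 h was found in 20 of them and a lower one in 0, against 21.1% and 22.2% of all probes. At 4 h alone 6 of them were higher and 10 lower in shikonin skin, against 21.2% and 25.4% of all probes. Their classes were mixed, 2 reversed, 4 up at 24 h only, 3 down at 4 h only (the resident macrophage genes Adgre1, C1qa and Mertk) and 6 with a larger rise at 24 h. The summed level of this list was 150961 to 152048 on acetone 4 h, 205997 to 212574 on shikonin 4 h, 117285 to 118424 on acetone 24 h and 306749 to 307308 on shikonin 24 h.

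Of 19 measured interferon gamma-induced GTPases and antigen presentation genes, 17 had a higher effect at 24 h and 0 a lower one (median 2.21). Over all probes 21.1% were higher and 22.2% lower. Of the 19 genes 10 turned from down to up, against 3.32% of all probes. Gbp2, a guanylate-binding GTPase whose promoter is printed above, read 13.02 and 13.02 in acetone and 11.68 and 11.75 in shikonin at 4 h, then 11.94 and 11.89 in acetone and 14.22 and 14.41 in shikonin at 24 h. Shikonin passed from below acetone to above it by a wide gap, with effects of -1.30 at 4 h and 2.40 at 24 h (limma, adjusted p = 3.97e-07 for the difference). The immunoproteasome subunits Psmb8, Psmb9 and Psmb10 and the peptide transporter Tap1 turned as well, with effects at 4 h between -1.75 and -0.75 and at 24 h between 0.55 and 1.07. Psmb9, Tap1 and Psmb8 are neighbours on chromosome 17 among the measured genes, and Gbp3, Gbp2b and Gbp2 on chromosome 3. With all 4 acetone arrays as control, 5 of the 19 were reversed. In acetone skin the level of 11 of 19 fell between the times, against 14.2% of all probes.

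For several genes the sign or the call of the 4 h effect depended on which acetone arrays served as control. Cxcl10, the interferon-induced chemokine for T cells, had 11.39 and 11.50 in acetone and 10.46 and 10.24 in shikonin at 4 h, and 9.05 and 8.82 in acetone and 14.32 and 14.62 in shikonin at 24 h. Acetone fell by 2.51 and shikonin rose by 4.12, and against all 4 acetone arrays the 4 h effect was 0.16 and did not pass. Fcgr4, an activating Fc receptor, was -0.78 at 4 h against its own acetone arrays and 0.61 against all 4. Sprr1b, a cornified envelope precursor of stressed keratinocytes, read 13.37 and 13.46 in acetone at 4 h and 10.49 and 10.51 at 24 h, and 12.17 and 12.20 in shikonin at 4 h and 12.25 and 12.23 at 24 h. The shikonin arrays held 1 level throughout while acetone crossed it from above, which gave effects of -1.23 at 4 h and 1.74 at 24 h (difference 2.97, limma, adjusted p = 9.34e-07). Sprr2h did the same (shikonin change 0.35, acetone change -3.64). Together with Sprr2d, Sprr2e, Sprr2f, Sprr2i and Sprr2j-ps these are 7 neighbouring genes of chromosome 3, and their near-identical sequences may share probe signal. Krt16, a keratin of stressed epidermis, was up at 24 h only (-0.44 at 4 h and 1.97 at 24 h) with a shikonin change of -0.31 and an acetone change of -2.71, so that the sign of its difference depends on the control.

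Some vessel and glycolysis genes also turned from down to up, 4 of 19 and 5 of 27, against 3.32% of all probes. Kdr, the main VEGF receptor of endothelium, had 9.95 and 10.03 in acetone and 9.29 and 9.07 in shikonin at 4 h, and 9.72 and 9.85 in acetone and 11.84 and 11.97 in shikonin at 24 h. Acetone changed by -0.20, and shikonin was below it first and above it later, with a difference of effects of 2.92 (limma, adjusted p = 7.43e-06). Of 19 endothelial genes 11 had a higher and 2 a lower effect at 24 h, against 21.1% and 22.2% of all probes. The 4 reversed were Kdr, Aqp1, Egfl7 and Sox18, while Tek, the angiopoietin receptor, fell at 4 h only (-1.78, then -0.01). Pfkl, phosphofructokinase of liver type, had effects of -0.66 at 4 h and 1.54 at 24 h, and Eno2, an enolase, -1.45 at 4 h and 1.47 at 24 h. Of 27 glycolysis and hypoxia genes, 15 had a higher and 2 a lower effect at 24 h, against the same shares of all probes. The glycolysis genes Pgam1, Pgk1 and Pkm rose at 24 h only, with 24 h effects of 1.38 to 1.88.

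**Figure D3:**
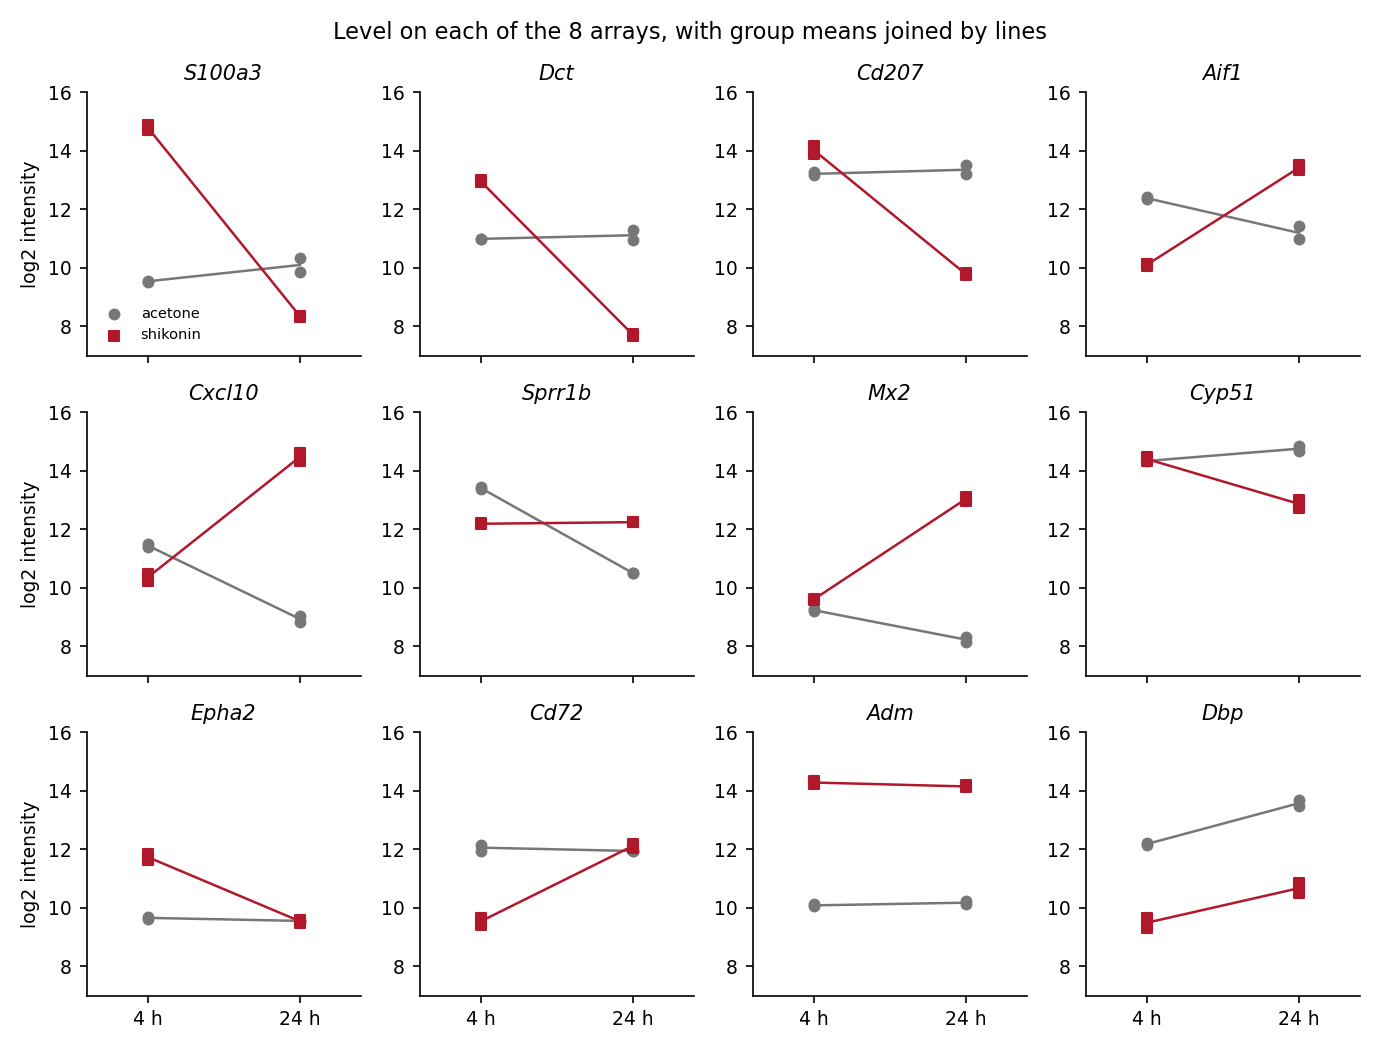
Log2 intensity on each of the 8 arrays for 12 genes, with acetone as grey circles, shikonin as red squares and lines joining group means at 4 h and 24 h. The lines cross for S100a3, Dct, Cd207, Aif1, Cxcl10 and Sprr1b, diverge by 24 h for Mx2 and Cyp51, converge by 24 h for Epha2 and Cd72, and run side by side for Adm and Dbp.

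Type I interferon-induced genes formed the largest share of any of the 37 lists in the class with a rise at 24 h only. Of 38 measured, 37 had a higher effect at 24 h and 0 a lower one (median 2.75), 18 rose at 24 h only (3.87% of all probes), 12 rose more at 24 h, 5 turned from down to up and 2 were in no narrower class. Mx2, an antiviral dynamin-like GTPase, had 9.27 and 9.21 in acetone and 9.62 and 9.58 in shikonin at 4 h, then 8.31 and 8.15 in acetone and 13.09 and 12.98 in shikonin at 24 h. The shikonin 24 h arrays stood alone, about 27.9-fold above acetone, and the 4 h effect of 0.36 did not pass (limma, adjusted p = 0.0537). Mx1 (0.40 at 4 h and 4.66 at 24 h) followed, with 2 probes called alike. Ifi44l (-0.18 at 4 h and 4.14 at 24 h), Phf11d (-0.10 at 4 h and 4.24 at 24 h), Ifi204, a sensor of DNA (-0.08 at 4 h and 3.99 at 24 h), and Gbp5 (-0.20 at 4 h and 3.65 at 24 h) complete the 6 genes with the largest difference of this kind among those measured in all groups. Ifit2, which limits viral translation, turned from -1.55 to 6.31. Its arrays read 9.58 and 9.36 in acetone and 8.18 and 7.67 in shikonin at 4 h, then 7.67 and 7.91 in acetone and 13.94 and 14.26 in shikonin at 24 h, so the shikonin 24 h pair was far above the rest and 1 array of each of 2 other groups was at the floor. Against all 4 acetone arrays, which include those of 24 h, the 4 h effects of Mx2 (0.87), Mx1 (0.70) and Ifi204 (0.92) passed. Under that control these were called up at both times, while Ifi44l, Phf11d and Gbp5 were still called at 24 h only. The effects on Ifi44 were -1.51 at 4 h and 4.63 at 24 h, and against all 4 acetone arrays the first was -0.38 and did not pass, while Ifit2 was still reversed (-0.71 at 4 h).

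Interferon genes with a rise at both times grew further. Rsad2, which encodes viperin, had effects of 2.05 at 4 h and 6.88 at 24 h, Oasl1 of 1.51 at 4 h and 6.45 at 24 h and Usp18, a protease that removes ISG15, of 0.53 at 4 h and 5.25 at 24 h. For Rsad2 the acetone arrays read 10.99 and 11.03 at 4 h and 8.86 and 9.24 at 24 h, and the shikonin arrays 12.90 and 13.22 at 4 h and 15.94 and 15.92 at 24 h. Shikonin was above acetone each time, and of the difference of 4.83 a fall in acetone gave 1.96 and a rise in shikonin 2.87. The summed intensity of the 38 genes was 674095 to 704054 on the shikonin 24 h arrays and 133115 to 202312 on the other 6. Over the list, the median change between the times was 2.17 in shikonin skin and -0.58 in acetone skin.

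**Figure D4:**
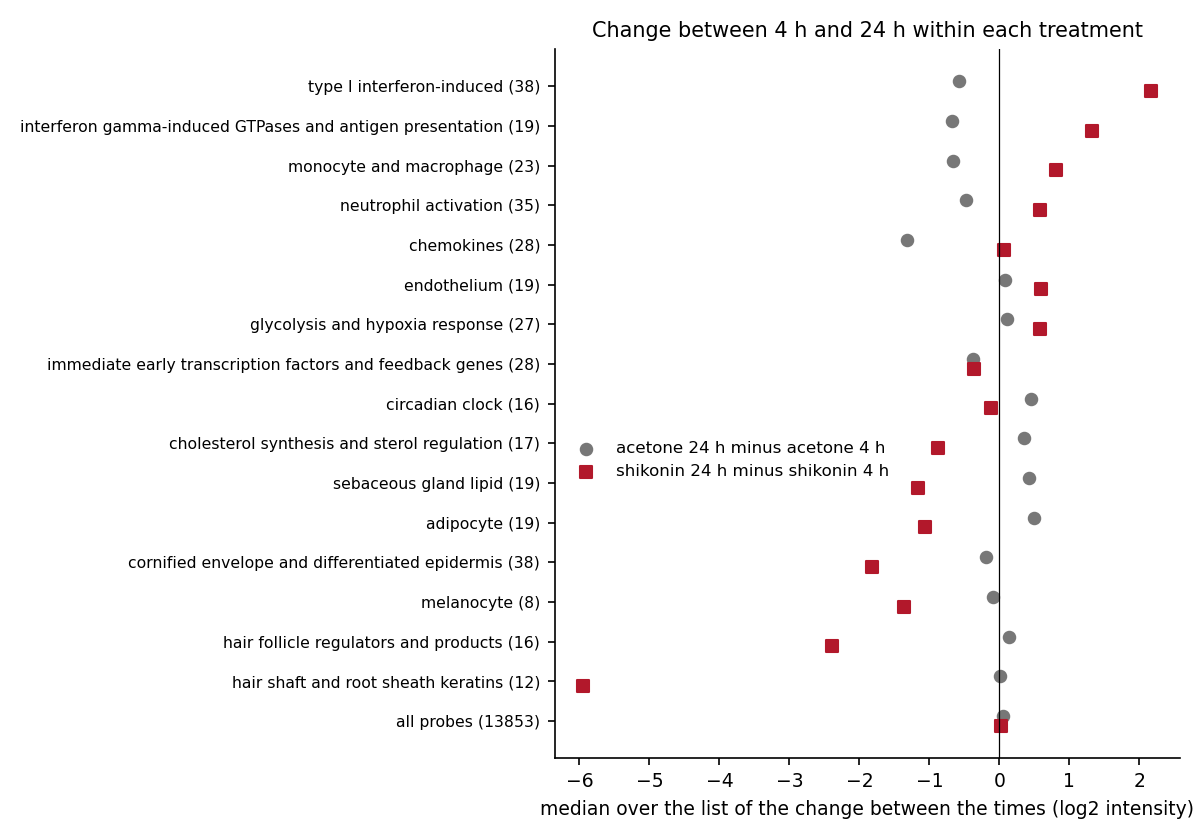
Median change from 4 h to 24 h in log2 intensity over the measured genes of 16 lists and over all probes, for shikonin skin (red squares) and acetone skin (grey circles), with the number of genes in brackets. Type I interferon-induced genes moved to 2.17 in shikonin skin and -0.58 in acetone skin, hair shaft and root sheath keratins to -5.95 and 0.01, and chemokines to 0.07 and -1.32.

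Examples of other list members with a rise at 24 h only are the macrophage genes Fcgr1 and Msr1 and the chaperone gene Hspa5. Fcgr1, the high-affinity Fc receptor, read 9.63 and 9.32 in acetone and 9.43 and 9.82 in shikonin at 4 h, and was at the floor on both acetone 24 h arrays against 12.67 and 12.62 in shikonin. The groups overlapped at 4 h, and at 24 h the effect was at least 31.5-fold. Msr1, a scavenger receptor, showed the same with a 24 h effect of at least 20.0-fold. Hspa5, the chaperone BiP of the endoplasmic reticulum, had effects of 0.03 at 4 h and 2.16 at 24 h, with acetone falling by 1.54 and shikonin rising by 0.59. With all 4 acetone arrays as control, those of 24 h included, the 4 h effects of Fcgr1 (1.05), Msr1 (0.89) and Hspa5 (0.80) passed. Under that control these were called up at both times.

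Falls at 24 h only included 8 of 17 genes of cholesterol synthesis and sterol regulation, against 4.51% of all probes. Of these 17 genes, 11 had a lower effect at 24 h and 0 a higher one (median -1.36). Cyp51, sterol demethylase, read 14.34 and 14.32 in acetone and 14.33 and 14.47 in shikonin at 4 h, and 14.83 and 14.67 in acetone and 12.74 and 12.99 in shikonin at 24 h. The groups overlapped at 4 h, and shikonin was the lower at 24 h by 3.69-fold (effect -1.88, difference -1.96, limma, adjusted p = 1.56e-05). Lss, lanosterol synthase, had effects of 0.13 at 4 h and -2.33 at 24 h. Dhcr7, Fdps, Idi1, Msmo1, Mvd and Sqle, which act in the same pathway, had 24 h effects from -2.02 to -1.09 and 4 h effects from -0.29 to 0.25. The sterol gene Insig1, a brake on the same pathway, did not pass at the difference (0.52 at 4 h, 0.48 at 24 h).

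Sebaceous and fat genes fell at 24 h only in 7 of 19 and 5 of 19 cases, against 4.51% of all probes. Of 19 sebaceous gland genes 13 had a lower and 1 a higher effect at 24 h (median -1.60), against 22.2% and 21.1% of probes. Of 19 adipocyte genes 14 had a lower and 0 a higher effect (median -1.29). Others fell at both times and more at 24 h. Thrsp, a regulator of lipid synthesis, had effects of -1.01 at 4 h and -5.87 at 24 h, and the fatty acid elongase Elovl6 of -0.48 at 4 h and -4.77 at 24 h. Fa2h, a fatty acid hydroxylase, was at the floor on both shikonin 24 h arrays, at least 116-fold below acetone, after -0.40 at 4 h. In acetone skin the median change of the 2 lists between the times was 0.42 and 0.50, with 10 genes of each list higher and 0 lower, and in shikonin skin it was -1.16 and -1.06, with 14 genes of each lower.

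Among genes measured in all groups, the largest difference with a fall at 24 h only was that of Mfap4, a microfibril protein of elastic fibres. It had 11.60 and 11.48 in acetone and 11.37 and 11.72 in shikonin at 4 h, and 11.77 and 11.65 in acetone and 7.68 and 7.67 in shikonin at 24 h. Its groups overlapped at 4 h, and shikonin was at the floor or barely above it at 24 h (difference -4.04, limma, adjusted p = 1.56e-06). Tlcd4, Tnk1, a tyrosine kinase, Tmem45b, Reep6 and Lypd6b had 4 h effects between -0.28 and 0.22 and 24 h effects between -4.09 and -3.52. Against all 4 acetone arrays Tnk1 (-0.47) and Tmem45b (-0.51) passed at 4 h too. Gsta3, a glutathione transferase of the NRF2 list, had -0.14 at 4 h and -3.45 at 24 h, and Ccl17, a chemokine for T cells made by dendritic cells, 0.05 at 4 h and -2.46 at 24 h. With all 4 acetone arrays as control Gsta3 (-0.56) passed at 4 h too, and Ccl17 (-0.12) did not.

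An effect at 4 h only was the rarest of the classes for a single time. Wfdc18, a whey acidic protein family member, read 9.45 and 9.65 in acetone and 13.73 and 13.38 in shikonin at 4 h, and 10.43 and 10.15 in acetone and 9.92 and 10.23 in shikonin at 24 h. Only the shikonin 4 h arrays stood out, 16-fold above acetone, and the 24 h groups overlapped. Epha2, an ephrin receptor kinase of keratinocytes, gave 9.62 and 9.69 in acetone and 11.63 and 11.84 in shikonin at 4 h, against 9.55 and 9.56 in acetone and 9.60 and 9.48 in shikonin at 24 h. The effect of 4.22-fold at 4 h was -0.01 on the log2 scale at 24 h, where the groups overlapped, with a difference of -2.09 (95% interval -2.53 to -1.65). Pinlyp (3.33 at 4 h and -0.23 at 24 h), Stbd1 of glycogen metabolism (2.0 at 4 h and -0.23 at 24 h), Pank3 of coenzyme A synthesis (1.99 at 4 h and -0.23 at 24 h) and Tob1, an antiproliferative protein (2.13 at 4 h and 0.08 at 24 h), complete the 6, of which Tob1 passed at 24 h too against all 4 acetone arrays (0.58). Nfkb1, a subunit of NF-kB, was up by 1.56 at 4 h and 0.23 at 24 h, with an acetone change of 0.00. Herpud1, of endoplasmic reticulum stress, had 1.34 at 4 h and 0.08 at 24 h, but most of its difference lay in acetone skin (0.92), and against all 4 acetone arrays it was -0.34 and did not pass.

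Falls at 4 h only included the lymphocyte genes Cd72 and Cd3g and the receptor gene Pdgfrb. Of 14 T and natural killer cell genes 2 were in this class, against 1.13% of all probes. Of the 28 fibroblast collagen and matrix genes, a list that holds Pdgfrb, 4 were in it, and of 14 smooth muscle and pericyte genes 0. Cd3d of the T cell list rose at both times (1.24 and 1.39), with a bounded difference. Cd72, a B cell lectin, had 12.16 and 11.95 in acetone and 9.41 and 9.66 in shikonin at 4 h, and 11.93 and 11.95 in acetone and 12.04 and 12.19 in shikonin at 24 h. Shikonin was the only low group at 4 h, and at 24 h it was just above acetone (effects -2.52 at 4 h and 0.17 at 24 h). Pdgfrb, the PDGF receptor of pericytes and fibroblasts, read 12.59 and 12.68 in acetone and 10.75 and 10.72 in shikonin at 4 h and 12.79 and 12.82 in acetone and 12.82 and 12.72 in shikonin at 24 h. Its shikonin level came back to that of acetone, with an effect of -0.04 at 24 h. Cd3g, a chain of the T cell receptor complex (-1.98 at 4 h and -0.04 at 24 h), Arsi, an arylsulfatase (-2.84 at 4 h and -0.33 at 24 h), Stard8 (-2.01 at 4 h and 0.46 at 24 h), and Chrna1, the muscle acetylcholine receptor (-1.58 at 4 h and 0.44 at 24 h), were in the same class. Against all 4 acetone arrays Arsi (-0.69), Cd3g (-0.63) and Stard8 (0.59) passed at 24 h too. For Ppp1r3c, a glycogen-targeting subunit of protein phosphatase 1, the shikonin arrays were low at both times (7.68 and 7.73, then 7.87 and 7.78) and acetone fell to meet them (10.10 and 10.65, then 8.08 and 8.47). With all 4 acetone arrays as control its falls were equal (-1.62 at 4 h and -1.50 at 24 h).

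Equal rises were found among immediate early and feedback genes. Of 28 measured immediate early and feedback genes, 9 had a higher and 6 a lower effect at 24 h, against 21.1% and 22.2% of all probes. Another 9 had equal rises, against 2.19% of all probes. Among the 9 were Egr1, Junb, Zfp36, Btg2 and Klf6, with effects between 1.31 and 2.34 at 4 h and between 1.38 and 2.28 at 24 h. The other 4 of the 9 were Csrnp1 and, with a bounded difference that leaves equality undecided, Ccn1, Fosl2 and Nr4a1. Of 18 NF-kB feedback genes 5 had equal rises. Of 31 inflammatory cytokines and growth factors 7 fell into this class, but only Csf1 and Hbegf had measured values in all groups, and the others, Il6, Csf3, Inhba, Il10 and Il24, had a group at the floor or saturated. Adm, the vasodilator peptide adrenomedullin, had 10.05 and 10.11 in acetone and 14.32 and 14.24 in shikonin at 4 h, and 10.22 and 10.13 in acetone and 14.18 and 14.11 in shikonin at 24 h. Both groups kept their levels, 18.3-fold and 15.7-fold apart, and the difference was -0.23 (95% interval -0.56 to 0.10). Slc2a3, a glucose transporter of leukocytes, had effects of 4.27 at 4 h and 4.33 at 24 h (interval of the difference -0.38 to 0.50), and Lmnb1, lamin B1, of 4.49 at 4 h and 4.15 at 24 h (interval -0.78 to 0.12). Cd33, a sialic acid-binding lectin of myeloid cells (4.37 at 4 h and 4.07 at 24 h), G0s2, an inhibitor of fat breakdown (3.74 at 4 h and 3.85 at 24 h), and Adamts4, a matrix protease (4.68 at 4 h and 4.89 at 24 h), complete the 6. Against all 4 acetone arrays Adamts4 was 5.17 and 4.40 and not equal. Between the times Adamts4 fell in both treatments, by 0.98 in acetone and 0.77 in shikonin. Il10 was up by 1.19 at 4 h and by at least 1.52 at 24 h, its acetone pair being at the floor there, so its difference of 0.33 is a bound too. For Il6 and Csf3 the acetone arrays of both times were at the floor.

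Equal falls included stromal secreted proteins and the clock output gene Dbp. Igfbp5, an IGF-binding protein, had 15.21 and 15.32 in acetone and 12.90 and 13.00 in shikonin at 4 h, and 15.43 and 15.75 in acetone and 13.12 and 13.00 in shikonin at 24 h. Shikonin was lower throughout, with effects of -2.32 at 4 h and -2.53 at 24 h and an interval of the difference from -0.58 to 0.15. Spon2, a matrix protein (-2.39 at 4 h and -2.33 at 24 h), Gdf10, a TGF-beta family member (-2.30 at 4 h and -2.53 at 24 h), Sfrp2, a WNT antagonist (-2.56 at 4 h and -2.34 at 24 h), and Il1f6, now called IL-36 alpha (-3.61 at 4 h and -3.85 at 24 h), were in the same class. Against all 4 acetone arrays Sfrp2 (-3.04 and -1.86), Il1f6 (-3.15 and -4.31) and Dbp (-3.39 and -2.20) were not equal at 4 h and 24 h, while Igfbp5, Spon2 and Gdf10 were. Dbp, a D-box-binding factor driven by the clock, read 12.14 and 12.21 in acetone and 9.66 and 9.32 in shikonin at 4 h, and 13.68 and 13.47 in acetone and 10.49 and 10.85 in shikonin at 24 h. Acetone rose by 1.40 and shikonin by 1.18, so that the gap stayed at -2.69 and -2.90 while both levels moved.

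Other clock genes did not all keep that gap. Of 16 measured, 8 had a lower effect at 24 h and 0 a higher one (median -0.56), against 22.2% and 21.1% of all probes. Between the times 9 rose and 2 fell in acetone skin, against 15.5% and 14.2% of all probes. In shikonin skin 2 rose and 5 fell, against 24.2% and 23.4%. Per1, a repressor of the clock that stress also induces, read 8.78 and 8.85 in acetone and 10.04 and 10.49 in shikonin at 4 h, and 9.61 and 9.99 in acetone and 9.73 and 9.50 in shikonin at 24 h. Shikonin was above acetone at 4 h and overlapped it at 24 h. Rora, a nuclear receptor that activates Arntl, had effects of -0.97 at 4 h and -2.47 at 24 h (limma, adjusted p = 1.62e-04 for the difference). Nfil3, which competes with Dbp for the D-box, was up equally (3.36 and 3.38).

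Among genes with the same direction at both times, the largest growth of a rise was in Oasl1, Rsad2 and Usp18, given above, and Car4, a carbonic anhydrase (1.40 at 4 h and 5.71 at 24 h). The largest growth of a fall was in epidermal and lipid genes. Krt15, a keratin of basal cells and of the hair follicle bulge, had 14.57 and 14.55 in acetone and 13.20 and 12.73 in shikonin at 4 h, and 14.98 and 15.18 in acetone and 8.14 and 8.26 in shikonin at 24 h. Shikonin was below acetone each time, 3.01-fold and then 118-fold. Cyp2e1, a cytochrome P450 (-0.74 at 4 h and -6.24 at 24 h), Acer1, alkaline ceramidase (-0.46 at 4 h and -5.64 at 24 h), and Sprr4, a cornified envelope protein (-0.41 at 4 h and -5.48 at 24 h), were of the same kind. Of 38 cornified envelope and differentiation genes 29 had a lower and 5 a higher effect at 24 h, against 22.2% and 21.1% of all probes. Rises shrank most in Cryba4 (3.79 at 4 h and 1.15 at 24 h), the scaffold Akap12 (3.67 at 4 h and 1.35 at 24 h), Chac1, a stress-induced enzyme that degrades glutathione (3.44 at 4 h and 1.14 at 24 h), and Man1a, a mannosidase (2.39 at 4 h and 0.46 at 24 h). Man1a was on the floor or near it on the acetone 4 h arrays and rose there by 2.36, so against all 4 acetone arrays its difference was 0.43. Falls shrank most in Meox2, a homeobox factor of vessels (-3.15 at 4 h and -0.53 at 24 h), Mrgprf (-3.26 at 4 h and -0.80 at 24 h), the macrophage lectin Cd209f (-3.21 at 4 h and -1.58 at 24 h) and Il18, a cytokine of keratinocytes (-2.03 at 4 h and -0.44 at 24 h). Against all 4 acetone arrays the 24 h effect of Il18 was -0.11 and did not pass.

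Of 28 chemokines 18 had a higher and 7 a lower effect at 24 h, against 21.1% and 22.2% of all probes. In acetone skin 0 of them rose and 16 fell between the times, against 15.5% and 14.2% of all probes. In shikonin skin 11 rose and 10 fell, against 24.2% and 23.4% of all probes. The medians of the change were -1.32 in acetone skin and 0.07 in shikonin skin. Cxcl5, a neutrophil chemokine, read 12.24 and 12.20 in acetone and 15.67 and 15.56 in shikonin at 4 h, and 7.67 and 7.67 in acetone at 24 h, with both shikonin arrays saturated. Both acetone 24 h arrays were at the floor, so the 24 h effect is at least 322-fold and the difference at least 4.93. S100a9, a calprotectin subunit of neutrophils, stayed level in shikonin skin (14.65 and 14.66, then 14.70 and 14.88) and fell in acetone skin (12.66 and 12.15, then 8.36 and 9.31). Il1b was similar, with a change of -3.00 in acetone and -0.40 in shikonin, and against all 4 acetone arrays both it and S100a9 had equal rises. Over the 16 neutrophil markers the median change was 0.09 in shikonin skin and -0.96 in acetone skin. The larger neutrophil activation list of 35 genes changed by a median of 0.58 in shikonin skin (21 rose, 3 fell) and -0.47 in acetone skin (1 rose, 17 fell). The 16 neutrophil markers summed to 97321 to 106107 on acetone 4 h and to 30598 to 30787 on acetone 24 h, and to 320660 to 330465 and 331232 to 331469 on the shikonin arrays of these times. Of these markers 2 were at the floor on both acetone 4 h arrays and 4 on both acetone 24 h arrays, and what neutrophils contribute to the differences was not tested.

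**Figure D5:**
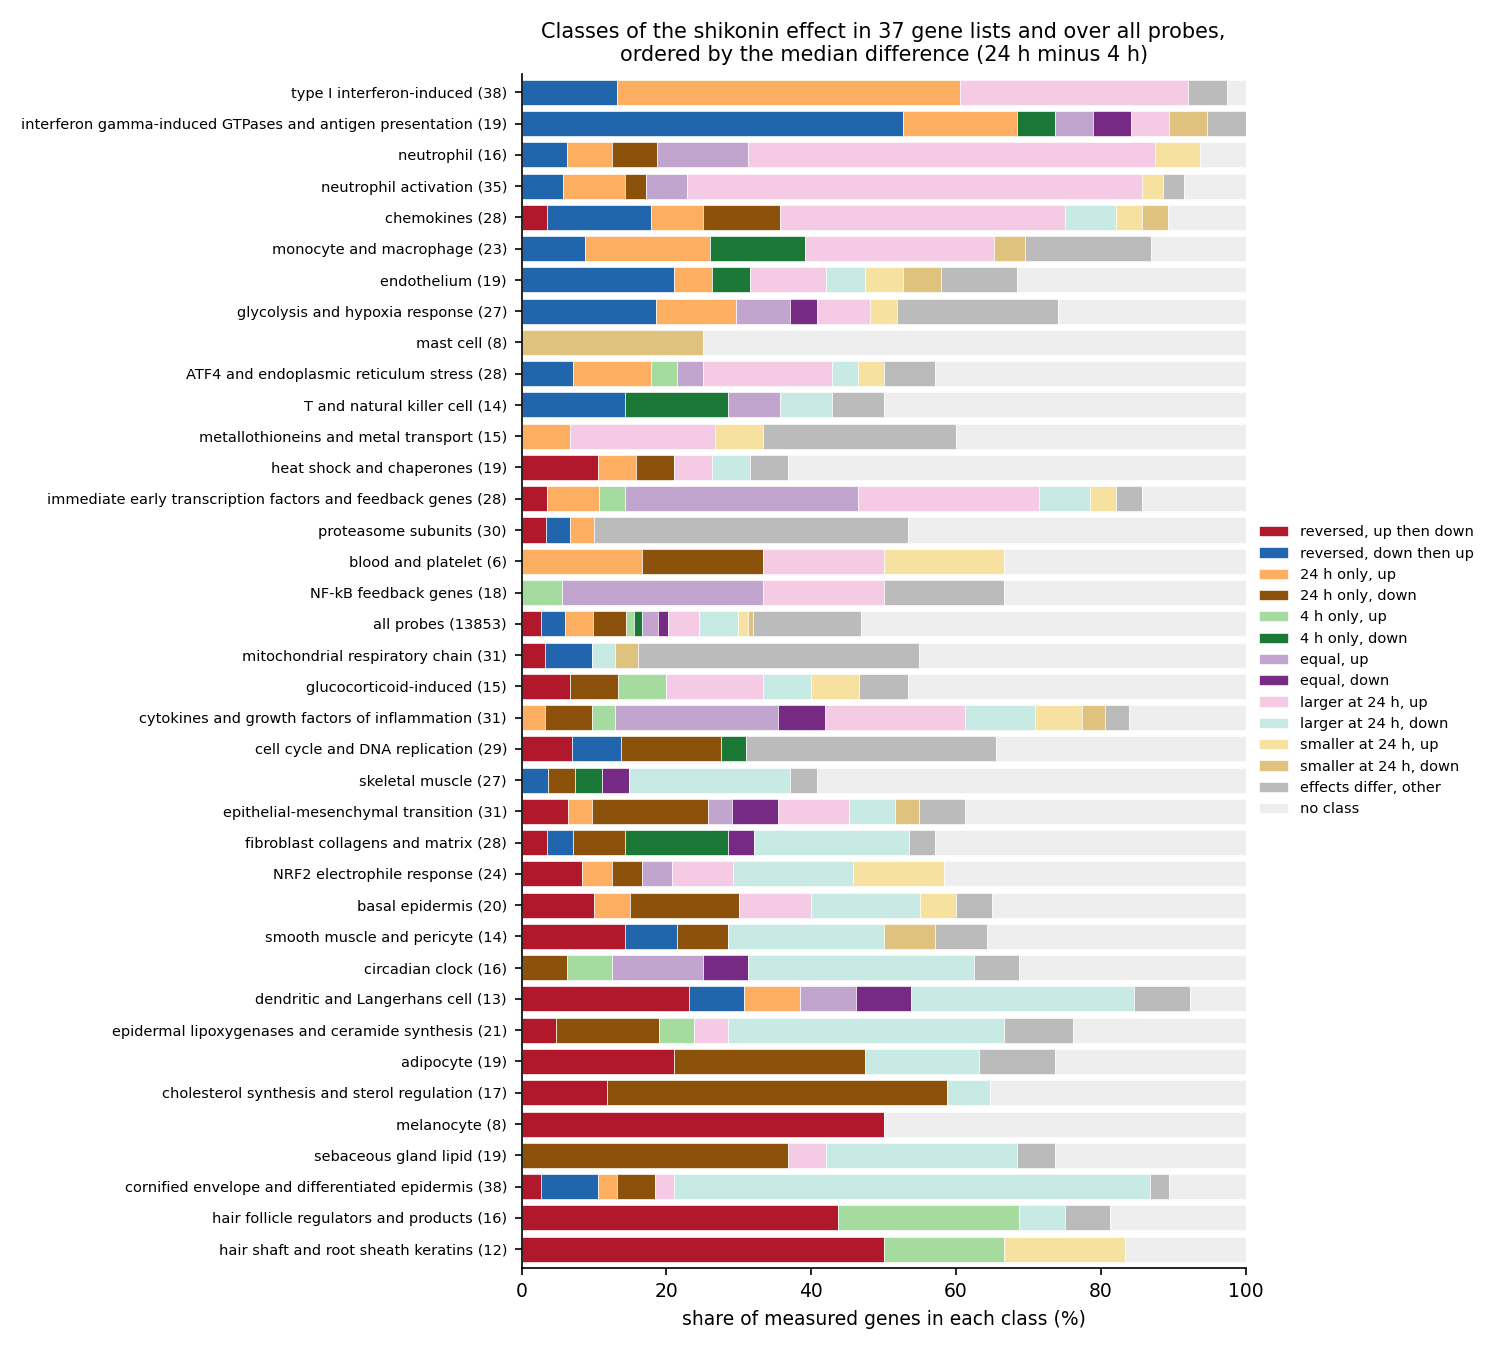
Share of the measured genes of each of 37 lists, and of all probes, that fell into each class of the shikonin effect, ordered by the median difference between the times, with the number of genes in brackets. Reversed effects from up to down make up 6 of 12 hair keratins and 4 of 8 melanocyte genes, reversed effects from down to up 10 of 19 interferon gamma-induced and antigen presentation genes, and falls at 24 h only 8 of 17 cholesterol genes.

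Genes of epithelial-mesenchymal transition, in which epithelial cells take on mesenchymal traits and which the study addresses, were not alike in time. Zeb2, a repressor of epithelial genes, read 11.29 and 11.25 in acetone and 11.30 and 10.64 in shikonin at 4 h, and 10.51 and 11.11 in acetone and 12.61 and 12.63 in shikonin at 24 h. The groups overlapped at 4 h and were apart at 24 h (-0.30 at 4 h and 1.81 at 24 h, difference 2.11, limma, adjusted p = 9.61e-04), but its 3 probes ranged from -0.50 to 2.85, 2 of them called up. Zeb1, its paralogue, had effects of -0.29 at 4 h and 0.01 at 24 h, and the difference of 0.31 did not pass (95% interval -0.06 to 0.68). Cdh1, E-cadherin, fell at 24 h only (-0.35 at 4 h and -1.12 at 24 h), and its difference of -0.77 passed with a limma adjusted p = 0.0223, but not without acetone 4 h replicate 2, acetone 24 h replicate 2, shikonin 4 h replicate 1 or shikonin 24 h replicate 1, where it was -0.68 to -0.54. Esrp1, a splicing factor of epithelia, fell further (-0.77 at 4 h and -4.02 at 24 h). Mmp9, a gelatinase, rose more at 24 h (2.88 at 4 h and 3.77 at 24 h), Mmp2, the other gelatinase, was lower at both times (-0.95 at 4 h and -1.22 at 24 h), with a difference of -0.28 that did not pass, and S100a4 had -0.79 at 4 h and -0.33 at 24 h. The S100a4 difference of 0.46 lost its call without any single one of 6 arrays, all but acetone 24 h replicate 2 and shikonin 4 h replicate 2, with values of 0.33 to 0.50. Vim, vimentin, was saturated on every array, so no difference can be given. Of 31 genes of this list 6 had a higher and 10 a lower effect at 24 h, with a median of -0.27, which was 0.046 over the 22 brighter ones, and 15 did not pass. Over all probes 21.1% were higher and 22.2% lower.

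Probes of 1 gene did not always fall into 1 class. Of 155 genes with more than 1 probe and at least 1 reversed, 19 had all probes reversed, and 8 had another probe called in the opposite direction of the difference.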

How the data were processed

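Total RNA of abdominal skin was labelled with Cy5 as antisense RNA and hybridised to the Mouse OneArray, 1 colour, 8 arrays in 4 groups of 2, and spots were read in GenePix with present calls from Spotfire, per the study's methods. The deposited values are linear intensities that the authors had already made equal in distribution between arrays. The sources used here do not say how that was done or why 16069 of 29922 probes were blank. No depth applies, since the number of arrays limits the precision. Intensities were floored at the 5th percentile (203.4) and put on the log2 scale, and limma 3.58.1 in R 4.3.3 fitted 4 group means with an intensity trend, 4 residual degrees of freedom and Benjamini-Hochberg adjustment over 13853 probes at 0.05. The script was tested on simulated data. Symbols came from the platform annotation and were updated through RefSeq (9712 current, 1814 updated, 24 kept), and 2303 measured probes had no symbol. Named genes were, among genes with no group at the floor and no saturated array, the 8 reversed each way with the largest smaller effect, 6 each way for 24 h only and 4 h only (largest difference) and for equal (largest mean effect), and 4 of each kind with the same direction but different size. In addition, further list members, genes the study addresses and chromosomal neighbours are named, of which those outside the rule were chosen after their values were seen. Members and lists were chosen with earlier results of these data known. Whether the replicate numbers in the titles pair the arrays is not stated, and the main fit did not use them. Alternatives were other normalizations, floors, filters, eBayes settings, array weights, a replicate block, each array left out, all 4 acetone arrays as control, a threshold of 0.01, a margin of 1.5-fold and averaging the probes of each gene. Figures were drawn with Python 3.11.15 and matplotlib 3.10.9.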

Additional observations from a re-analysis of the deposited data

Results flagged for a closer look

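Each difference of effects below passed the limma test between the times (adjusted p below 0.05), which is why it is listed, among 5999 of 13853 probes that did; values are the 24 h effect minus the 4 h effect in log2 intensity, most of these genes were chosen for large values, and no explanation was tested. Among genes that turned from up to down, the difference was -7.45 for Krt26, -8.20 for Krt71, -7.01 for S100a3, -5.92 for Crym, -5.37 for Dct, -4.31 for Tyrp1, -5.09 for Dlx3, -4.38 for Cd207, -2.40 for Cd209a, -4.89 for Cpm, -3.04 for Ptprf, -3.80 for Efhd1, -3.38 for Pawr, -3.91 for Slc27a6, -2.19 for Cdh3, -1.65 for Cldn4, -2.66 for Hspa2, -2.03 for Ccl11 and -2.90 for Acsl1. Genes that turned from down to up had differences of 4.51 for Aif1, 3.48 for Trem2, 3.64 for Ctss, 2.89 for Clec4a3, 3.70 for Gbp2, 7.86 for Ifit2, 6.14 for Ifi44, 2.92 for Eno2, 6.63 for Cxcl10, 4.73 for Fcgr4, 3.25 for Klrk1, 2.92 for Kdr, 2.21 for Pfkl, 2.97 for Sprr1b and 3.99 for Sprr2h. With a rise at 24 h only, it was 4.44 for Mx2, 4.25 for Mx1, 4.32 for Ifi44l, 4.34 for Phf11d, 4.07 for Ifi204, 3.86 for Gbp5, 4.83 for Fcgr1, 4.41 for Msr1, 2.11 for Zeb2, 2.41 for Krt16 and 2.14 for Hspa5. With a fall at 24 h only, it was -4.04 for Mfap4, -3.85 for Tlcd4, -3.81 for Tnk1, -3.80 for Tmem45b, -3.76 for Reep6, -3.74 for Lypd6b, -2.46 for Lss, -1.96 for Cyp51, -3.30 for Gsta3, -2.51 for Ccl17 and -0.77 for Cdh1. With a rise at 4 h only, it was -4.21 for Wfdc18, -3.56 for Pinlyp, -2.24 for Stbd1, -2.22 for Pank3, -2.09 for Epha2, -2.05 for Tob1, -1.64 for Per1, -1.33 for Nfkb1 and -1.26 for Herpud1. With a fall at 4 h only, it was 2.69 for Cd72, 2.51 for Arsi, 2.48 for Stard8, 2.23 for Ppp1r3c, 2.03 for Chrna1, 1.94 for Cd3g, 1.87 for Pdgfrb and 1.77 for Tek. Rises that were larger at 24 h differed by 4.95 for Oasl1, 4.83 for Rsad2, 4.71 for Usp18, 4.31 for Car4, 4.93 for Cxcl5, 3.70 for S100a9, 2.60 for Il1b and 0.89 for Mmp9. Falls that were larger at 24 h differed by -5.49 for Cyp2e1, -5.29 for Krt15, -5.19 for Acer1, -5.07 for Sprr4, -6.46 for Fa2h, -4.29 for Elovl6, -4.86 for Thrsp, -3.25 for Esrp1 and -1.5 for Rora. Rises that were smaller at 24 h differed by -2.64 for Cryba4, -2.31 for Akap12, -2.30 for Chac1 and -1.93 for Man1a. Falls that were smaller at 24 h differed by 2.61 for Meox2, 2.46 for Mrgprf, 1.62 for Cd209f, 1.58 for Il18 and 0.46 for S100a4. Values for Krt71, Fa2h, Fcgr1, Msr1 and Cxcl5 are bounds set by the floor or by saturation.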

How the results depend on the processing

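With 2 arrays a group and signals bounded by floor and saturation, classes of single probes depend on the settings, and probes near the floor have bounds in place of values. Probes with a different effect between the times numbered 3509 of 6927 without the probes below the median of mean intensity (dim probes) and 3810 at an adjusted p of 0.01, against 5999. Reversed probes numbered 500 and 372 under these settings, against 828. Without dim probes, with fewer probes tested, there were 599 with an effect at 24 h only, 103 at 4 h only and 216 equal. A margin of 1.5-fold in place of 2-fold, stricter by construction, gave 646, 135 and 131. A floor at the 25th percentile gave 197 probes at 4 h only, and all 4 acetone arrays as control gave 728 at 24 h only. Leaving out 1 array gave 4436 to 6013 different, 485 to 890 reversed, 1095 to 1265 at 24 h only, 232 to 384 at 4 h only and 409 to 483 equal probes, the lowest reversed count without acetone 4 h replicate 1. In these fits the lone array of a group is assumed to vary like the others. With the replicate number as a block the counts were 5898, 787, 1213, 327 and 491. Deviations of same-numbered arrays correlated at -0.21 to 0.21, which with 2 arrays a group cannot settle whether the numbers pair the arrays. With all 4 acetone arrays as control at both times, acetone cancels and the difference is the change in shikonin skin alone. That change had the opposite sign of the main difference for Man1a (0.43), Il1b (-0.40) and Krt16 (-0.31). The median of the epithelial-mesenchymal transition list was 0.046 without dim probes, against -0.27, and the cause of that was not tested. Of the other values for named genes, 2240 kept direction and side of the threshold, 21 lost the call and 7 gained it. Those lost belonged to Cdh1 and S100a4 (several settings), Tob1 (floor at the 25th percentile), and, with all 4 acetone arrays as control, Ppp1r3c, S100a9, Herpud1, Sprr2h and Sprr1b. Those gained were Adamts4, Il1f6, Dbp, Sfrp2 and Mmp2 with that control, Adamts4 also with the floor at the 25th percentile, and Il10 with the floor at the 1st.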

Other observations

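Several lists did not stand apart from all probes in the difference of effects. Of 31 mitochondrial respiratory chain genes 8 were higher and 9 lower (median -0.02), of 30 proteasome subunits 9 were higher and 7 lower (0.05), and of 29 cell cycle and DNA replication genes 9 were higher and 10 lower (-0.10), against 21.1% higher and 22.2% lower over all probes. Of 27 skeletal muscle genes 25 were lower in shikonin skin at 4 h and 22 at 24 h, against 25.4% and 32.3% of all probes. Their differences were higher in 3 and lower in 7 (median -0.17), and 17 did not pass. Of 28 fibroblast collagen and matrix genes 21 were lower at 4 h and 18 at 24 h, against the same 25.4% and 32.3%. Their difference was higher in 6 and lower in 9. The NRF2 electrophile list, by contrast, leaned lower, with 3 higher and 10 lower of 24 (median -0.38, against -0.02 over all probes).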
